A study of Mus musculus with 41 samples.

Results

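The regions described here were the PU.1 binding sites of freshly sorted mouse microglia that lay in open chromatin but carried neither of the histone marks mapped in the same cells. They were the peaks of the ex vivo PU.1 list that overlapped an ex vivo ATAC peak by at least 1 bp and no ex vivo H3K4me2 or H3K27ac region. Of 79601 PU.1 peaks, 14780 met this rule, which is 18.6%. The sites were chosen by the ex vivo PU.1, ATAC, H3K4me2 and H3K27ac peak calls, which are given for them as description alone.

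The study sorted microglia from C57Bl6 mouse brain and assayed them at once (ex vivo) or after culture in serum-containing medium with IL-34 added daily. RNA was sequenced from 5 libraries of microglia cultured for 7 d and 5 of ex vivo microglia, which are the groups compared here, and also from 2 libraries at 6 h, 3 at 24 h (the label of 1 gives 22 h), 2 cultured for 7 d with IL-34 and TGFβ, and 4 of whole brain lysate. Chromatin was mapped by ATAC and by H3K27ac ChIP in 7 d cultures and in ex vivo cells with 2 libraries each (1 of the 7 d ATAC libraries is labelled 8 d), and by PU.1 and H3K4me2 ChIP in 2 ex vivo libraries each. The authors called 1 peak list on the pooled libraries of each assay and condition, so the lists give no spread between replicates. PU.1 and H3K4me2 were not mapped at 7 d in the data used here.

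PU.1, encoded by Spi1, is an ETS-family transcription factor that microglia and other macrophages need for their development, and it binds purine-rich DNA around a GGAA core. H3K4me2 is found at promoters and at primed or active enhancers, and H3K27ac at active ones. ATAC reports chromatin that a transposase can enter. A site with ATAC and PU.1 but neither mark is thus accessible and bound with no region called for either of these modifications. Other histone marks were not mapped in the data used here.

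The letters of 5 sites that lie at the start of a gene whose RNA differed at 7 d are shown first, as examples. The RNA of these genes is given below. Each run is the stretch of the PU.1 peak inside the window from 250 bases before to 50 after the gene start, taken from RefSeq promoters of build GRCm38.p6 (mm10), on the strand of the gene and 5′ to 3′. The genes were picked after their values were seen. Capitals mark matches, on either strand, to the ETS core AGGAA or to the PU.1 core GAGGAAGT, which contains it. The Mmp12 run is chr9:7344206-7344406 (+), the Spp1 run chr5:104434884-104435084 (+), the Cybb run chrX:9469275-9469347 (-), the Spic run chr10:88682974-88683154 (-) and the Ifi209 run chr1:173630700-173630900 (+).
Mmp12: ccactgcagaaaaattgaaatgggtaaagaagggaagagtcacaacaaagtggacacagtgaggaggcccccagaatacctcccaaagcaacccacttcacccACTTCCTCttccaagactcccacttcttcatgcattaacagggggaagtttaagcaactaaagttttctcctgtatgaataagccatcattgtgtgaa
Spp1: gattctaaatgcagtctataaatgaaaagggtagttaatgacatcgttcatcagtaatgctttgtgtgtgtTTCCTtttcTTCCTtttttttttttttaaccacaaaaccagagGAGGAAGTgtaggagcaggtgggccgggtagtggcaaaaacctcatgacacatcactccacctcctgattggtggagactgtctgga
Cybb: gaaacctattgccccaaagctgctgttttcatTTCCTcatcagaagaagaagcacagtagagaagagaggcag
Spic: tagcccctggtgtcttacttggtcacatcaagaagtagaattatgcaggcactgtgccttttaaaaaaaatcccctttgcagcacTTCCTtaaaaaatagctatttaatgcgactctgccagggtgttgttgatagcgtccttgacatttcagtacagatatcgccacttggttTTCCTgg
Ifi209: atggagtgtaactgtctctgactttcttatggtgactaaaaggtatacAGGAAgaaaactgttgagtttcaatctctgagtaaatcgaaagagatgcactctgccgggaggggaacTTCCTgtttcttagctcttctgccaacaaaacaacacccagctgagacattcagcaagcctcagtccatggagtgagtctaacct
Mmp12 encodes a macrophage elastase, Spp1 the secreted phosphoprotein osteopontin, Cybb the catalytic subunit of the phagocyte NADPH oxidase, Spic an ETS factor related to PU.1, and Ifi209 an interferon-inducible protein of the HIN-200 family. The Mmp12 and Spp1 runs each hold 1 PU.1 core, and the other 3 runs hold the ETS core alone, 1 in Cybb and 2 each in Spic and Ifi209.

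Only 133 of the open unmarked PU.1 sites overlapped any of the 32851 listed promoter windows, and they fell in 141 windows of 134 genes. All motifs were searched on both strands of the whole 300-base windows. GAGGAAGT was present in 17.7% of these 141, against 5.59% of the 5902 windows that held an open PU.1 peak with both marks and 3.20% of all windows. The longer AGAGGAAGT, which contains it, was in 4.96%, against 2.07% and 1.00%, and AGGAA, contained in both, in 87.2%, against 65.8% and 66.7%. The windows with open unmarked sites held the PU.1 letters more often than either comparison set. They were chosen by PU.1 binding, so nothing is read from their difference to all windows. A RUNX run, TGTGGTT, was in 9.93% of the 141 windows, against 3.80% of those with both marks and 5.27% of all. A C/EBP run, TTGCNNAA, was in 14.9%, against 8.45% and 10.8%, and an AP-1 run, TGANTCA, in 9.93%, against 4.35% and 7.81%. By name, a CTCF-type motif was in 9.22%, against 2.95% and 2.43%, an IRF repeat in 6.38%, against 3.52% and 3.44%, an ETS-IRF composite in 2.84%, against 0.779% and 0.731%, and a MEF2-type motif in 2.13%, against 3.02% and 3.69%. The E-box CACGTG, at 2.84% of the 141 windows against 11.0% and 7.15%, and the CRE TGACGTCA, at 1.42% against 4.22% and 1.79%, were less frequent. The SMAD palindrome GTCTAGAC was in 1 of the 141 (0.709%), against 0.322% and 0.213%. The windows with open unmarked sites were poorer in G and C, with a median of 49.7% and 4 CG pairs, against 60.7% and 21 CG pairs in windows with both marks and 52.7% and 7 over all windows. Base composition moves with these motif shares, and its part in them was not tested. The letters of sites away from promoters were not analysed here.

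Most open unmarked PU.1 sites were far from gene starts. Their median distance to the nearest listed start was 23035 bp (quartiles 9213 and 55785 bp), against 5156 bp for the 19287 open PU.1 peaks with both marks. Starts on chromosome 18 were not listed, and 14191 of the 14780 sites had a distance. A start lay within 1 kb of 2.58% of the sites and of 37.8% of the peaks with both marks, and 53.6% and 71.6% lay inside a gene body. The next PU.1 peak was a median of 6055 bp away, against 1362 bp for peaks with both marks. Closed unmarked PU.1 peaks were much like the sites in all of these. Their median distance to a start was 23152 bp, and to the next PU.1 peak 6736.5 bp. A start lay within 1 kb of 2.62% of them, and 54.1% lay inside a gene body. For open peaks with H3K4me2 alone the 2 medians were 19413 and 5109 bp, with 12.6% within 1 kb of a start. The nearest marked region was a median of 8632 bp away (quartiles 3425 and 20358 bp), a value the rule itself shaped.

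At the edges of the rule, 65 sites met their ATAC peak by 20 bp or less, of which 50.8% had a 7 d ATAC peak, and 309 unmarked PU.1 peaks just missed an ATAC peak by at most 100 bp, of which 26.9% had one. The median overlap of a site with its ATAC peak was 176 of its 201 bp. A marked region lay within 100 bp of 414 sites, of which 18.6% overlapped a 7 d H3K27ac region, and 130 open PU.1 peaks were kept out by a marked overlap of 20 bp or less, of which 22.3% did. The 14780 sites lay on 14769 ATAC peaks, and 38 of them shared one.

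The first question was whether these sites stayed open in culture. A 7 d ATAC peak overlapped 11350 of the 14780 sites, which is 76.8% (95% Wilson interval 76.1 to 77.5%). Among open PU.1 peaks with both marks the share was 87.0% (86.5 to 87.5%), with H3K4me2 alone 82.2%, with H3K27ac alone 85.1%, and among the 20643 PU.1 peaks with neither ATAC nor mark it was 16.6% (16.1 to 17.1%). Among PU.1 peaks with a mark and no ATAC the share was 25.5%. The open unmarked sites stood closer to the marked open peaks than to the closed ones. Ex vivo ATAC picked the open classes and left out the closed ones, so nothing is read from that nearness. These intervals cover counting error only. The order of the classes held on every chromosome: the share of open unmarked sites with a 7 d ATAC peak ran between 69.1 and 81.7%, below that of peaks with both marks and above that of closed unmarked peaks on 20 of 20.

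Acetylation at 7 d was far less common. A 7 d H3K27ac region overlapped 1247 of the sites, or 8.44% (8.00 to 8.90%). The share was 74.4% (73.8 to 75.0%) of open PU.1 peaks with both marks, 51.4% of those with H3K27ac alone and 17.5% of those with H3K4me2 alone. It was 3.44% (3.20 to 3.70%) of closed unmarked peaks and 47.5% of peaks with a mark and no ATAC. Classes with H3K27ac were picked by that mark ex vivo, so nothing is read from the distance of the sites to them. By 7 d, 10218 sites (69.1%) were open without acetylation, 1132 (7.66%) were open and acetylated, 115 (0.778%) were acetylated without an ATAC peak and 3315 (22.4%) had neither. The 7 d lists came from fewer tags than the ex vivo ones, 15223392 at 7 d and 23816068 ex vivo for ATAC, and 27568358 at 7 d and 45586997 ex vivo for H3K27ac. They still held more peaks, 112977 at 7 d and 90674 ex vivo for ATAC, and 31349 and 24520 for H3K27ac. The part of depth and of list size in the shares was not tested.

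**Figure D1:**
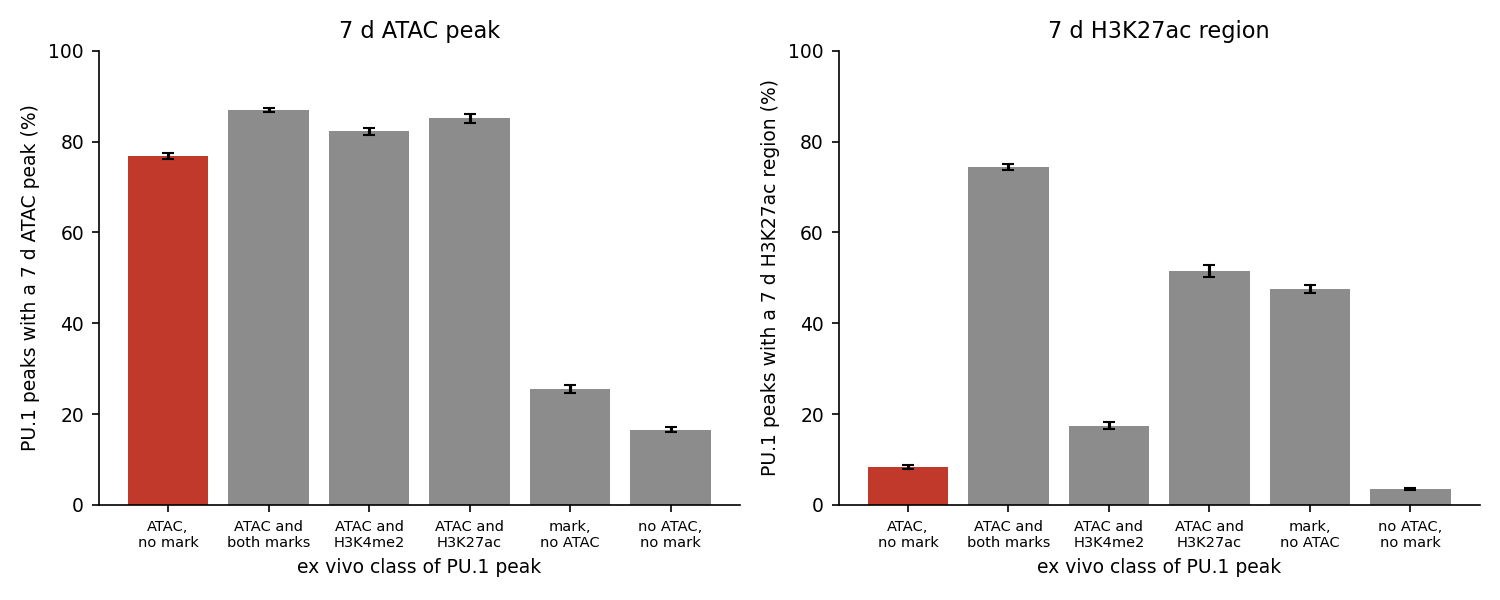
Share of PU.1 peaks (y axis, %) with a 7 d ATAC peak (left) and a 7 d H3K27ac region (right) in each ex vivo class (x axis), with open unmarked sites in red; bars are shares of 1 pooled list and error bars 95% Wilson intervals. The red bars stand at 76.8% for ATAC and 8.44% for H3K27ac, against 87.0% and 74.4% in the class with both marks.

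The 1247 acetylated sites lay in 1171 of the 31349 7 d H3K27ac regions (3.74%). Of those 1171 regions, 922 (78.7%) met no ex vivo mark anywhere along their length, and 123 (10.5%) met an ex vivo H3K27ac region. Over all 31349 regions, 57.5% met an ex vivo H3K27ac region. The rule itself kept ex vivo marks off the sites, so these shares are given as description and nothing is read from their difference. On chromosome X, 50 of 296 sites (16.9%) were acetylated at 7 d, against 5.99 to 10.3% on the autosomes, and these 50 were nearest to 41 genes, with Cybb holding 4 of them. Other PU.1 classes were also at their highest on X, with 78.9% of peaks with both marks and 6.17% of closed unmarked peaks acetylated.

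Open sites without marks were next compared by whether PU.1 was bound. Of ex vivo ATAC peaks with no mark, 14741 held a PU.1 peak and 22419 did not. A 7 d ATAC peak overlapped 76.8% (76.2 to 77.5%) of those with PU.1 and 62.7% (62.0 to 63.3%) of those without, and a 7 d H3K27ac region 8.41% (7.97 to 8.87%) and 4.70% (4.43 to 4.99%). Each list was also cut into 10 equal slices in the order of the file, an order whose meaning the headers do not state. Peaks with PU.1 stood earlier in the ATAC list, at a median of 57.2% of its length, against 74.6% without PU.1. Within slices, the share with a 7 d ATAC peak was higher with PU.1 in 10 of 10, at 98.8% with PU.1 and 84.4% without in the first slice and 53.4% and 43.8% in the last. The gap was smallest in the fourth slice, at 90.4% with PU.1 and 89.4% without. The share with 7 d H3K27ac was also higher with PU.1 in 10 of 10, at 20.2% with PU.1 and 14.1% without in the first slice and 5.10% and 3.37% in the last.

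**Figure D2:**
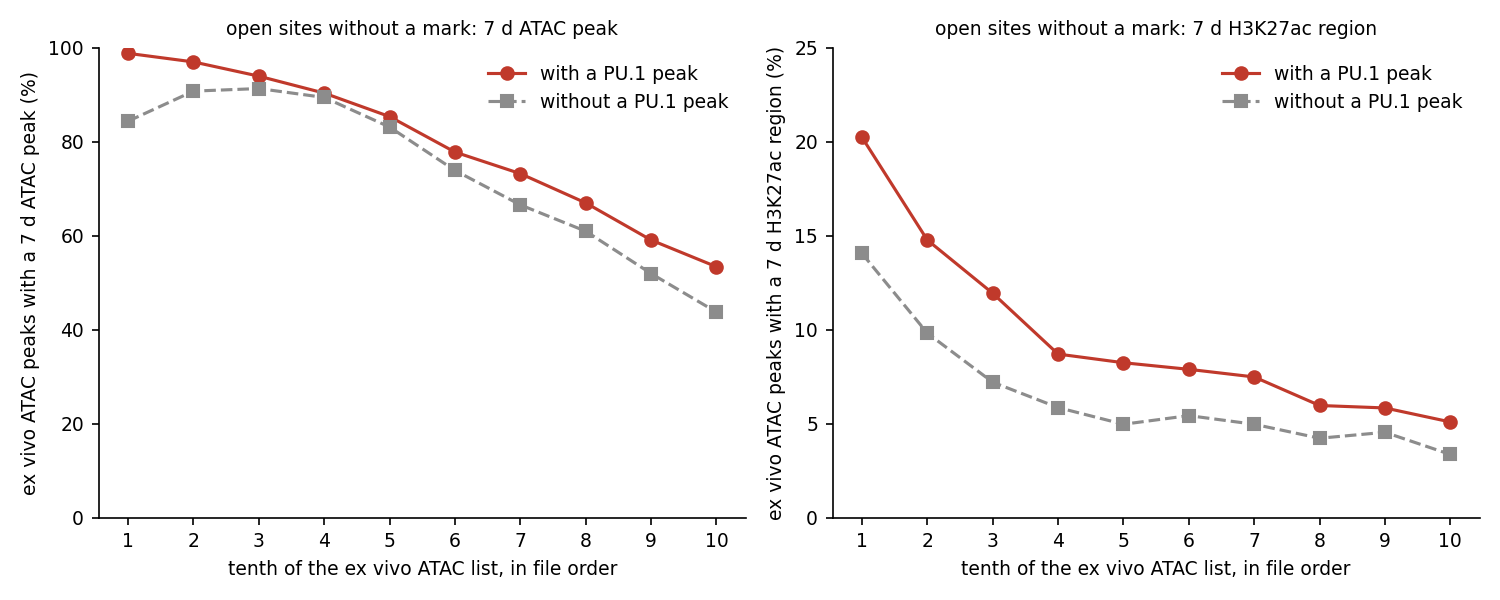
Share (y axis, %) of ex vivo ATAC peaks without a mark that had a 7 d ATAC peak (left) or a 7 d H3K27ac region (right), by slice of 10 of the ATAC list in file order (x axis), with a PU.1 peak (red circles) or without (grey squares). The red points lie above the grey ones in all 10 slices, and they fall along the list in both panels.

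Order in the PU.1 list moved with these shares too. The sites were 7.65% of the first slice of the PU.1 list, 26.8% of the seventh and 8.74% of the last, whereas peaks with both marks were 57.9% of the first and 0.905% of the last. In the first slice 93.4% of the open unmarked sites had a 7 d ATAC peak and 13.6% a 7 d H3K27ac region, and in the last 69.4% and 3.16%. The sites lay below peaks with both marks for ATAC in 9 of 10 slices, the exception being the first at 93.3% with both marks, and for H3K27ac in 10 of 10. They lay above closed unmarked peaks for ATAC in 10 of 10 and for H3K27ac in 9 of 10. In the second slice the H3K27ac shares were 12.2% for the sites and 13.75% for closed peaks, and in the fifth 9.30% and 7.47%. Closed unmarked peaks were 0.440% of the first slice and 80.5% of the last, and the part of this order in their lower share was not tested. The sites that kept ATAC and gained H3K27ac had a median place of 44.2% in the PU.1 list, against 53.6% for sites with ATAC alone and 61.5% for sites with neither. In the ATAC list the same medians were 43.6%, 51.6% and 75.6%.

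With distance from a marked region, ATAC and H3K27ac at 7 d went opposite ways. Of the 1556 sites within 1 kb of a marked region, 70.4% had a 7 d ATAC peak and 14.8% a 7 d H3K27ac region. From 5 to 20 kb, where 5977 sites lay, the shares were 77.2% and 7.91%. Of the 402 sites over 100 kb away, 89.1% had a 7 d ATAC peak and 4.23% a 7 d H3K27ac region. Across these bins, sites remote from every mark stayed open most often and were acetylated least often. The rule itself used the marks from which this distance is measured. Of the 1171 7 d H3K27ac regions that held a site, 922 met no ex vivo mark, and the rest reached a marked region. The part of such regions in the share of near sites was not tested. The median place in the ATAC list was 53.2% in the nearest bin and 58.7% in the farthest. In the PU.1 list it was 44.3% in the nearest bin and 71.6% in the farthest. From the first to the last slice of the PU.1 list, the 7 d H3K27ac share of the sites fell from 13.6% to 3.16%. Their 7 d ATAC share fell from 93.4% to 69.4%. The part of list order in the trends with distance was not tested. Within slices of the ATAC list, sites over 20 kb from a mark kept ATAC more often than sites up to 5 kb away in 9 of 10, the first slice excepted at 98.2% far and 98.8% near. In the fifth slice the shares were 92.3% far and 77.9% near, and in the last 63.4% far and 46.5% near. Sites up to 5 kb away were acetylated more often in 10 of 10 slices. In the first slice the shares were 19.6% far and 22.0% near, and in the last 3.89% far and 7.26% near.

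**Figure D3:**
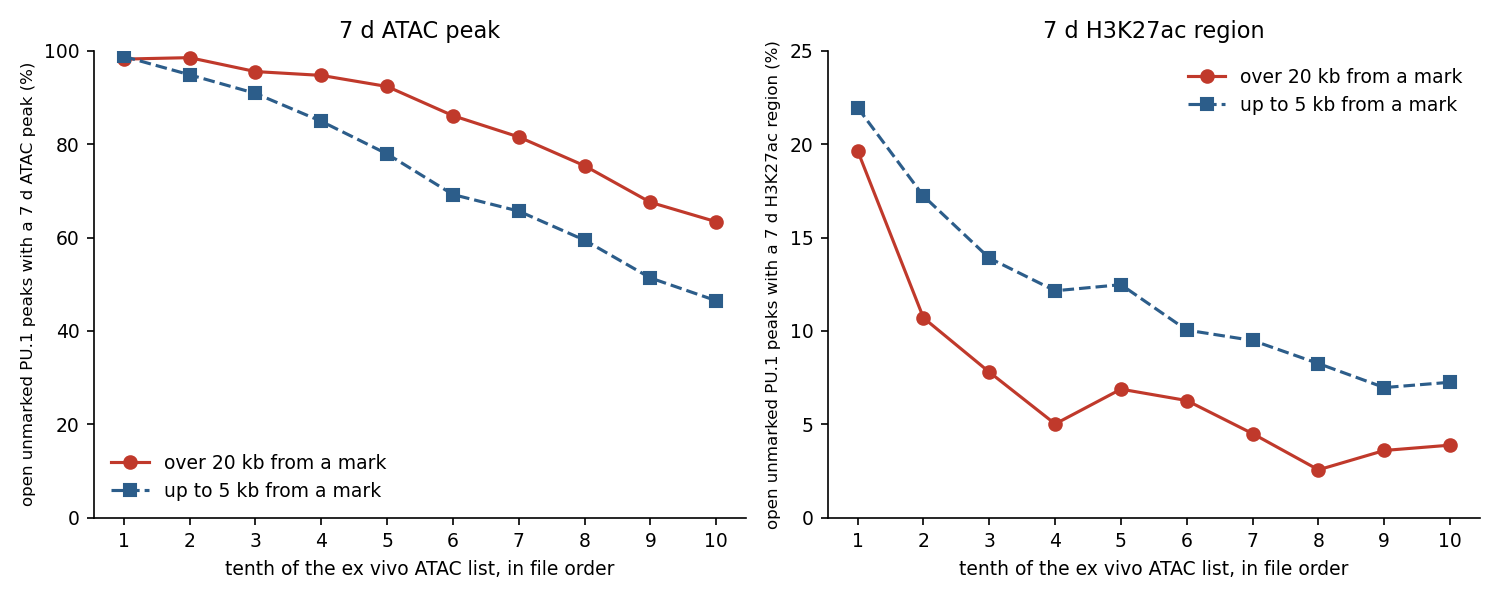
Share of open unmarked PU.1 sites (y axis, %) with a 7 d ATAC peak (left) or a 7 d H3K27ac region (right), by slice of 10 of the ATAC list in file order (x axis), for sites over 20 kb (red circles) or up to 5 kb (blue squares) from a marked region. Far sites kept ATAC more often in 9 of 10 slices and were acetylated less often in 10 of 10.

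RNA of the genes near the sites was compared next. A gene body lay within 100 kb of 13849 sites (93.7%), which were assigned to 7175 nearest genes, 4146 of them with 1 site and 57 with 10 or more. Nearest is not the same as regulated, and the assignment was made by distance alone. Of the 5095 genes with a site that were tested, 1819 (35.7%) were called higher and 1849 (36.3%) lower in 7 d cultures than ex vivo (edgeR quasi-likelihood test, Benjamini-Hochberg adjusted p under 0.05 over all 13840 genes tested). Over all genes tested the shares were 34.8% higher and 35.7% lower, or 70.5% called in either direction, so genes with a site were called about as often as any. Nothing in the labels says that libraries of a group came from separate mice, so these p-values measure the spread between libraries.

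Among the 771 tested genes with a site that was acetylated at 7 d, rises outnumbered falls. Of these, 421 (54.6%) were called higher and 181 (23.5%) lower at 7 d, with a median log2 difference of 0.52, against a median of -0.02 over all genes tested. Of the 4324 tested genes with sites of which none was acetylated, 1398 (32.3%) were higher and 1668 (38.6%) lower, with a median of -0.11. Genes with an acetylated PU.1 peak that was closed and unmarked ex vivo, 533 tested, had 50.5% higher and 27.2% lower, while for the 7633 genes with an acetylated peak that had been open with both marks the shares were 37.8% and 35.1%. Genes can belong to more than 1 of these sets, and the differences between sets were not tested. The genes with an acetylated site had a median ex vivo level of 28.6 CPM (counts scaled to the TMM-adjusted library size) and a median length of 53.0 kb, against 17.1 CPM and 21.0 kb over all genes tested, and the part of level and length was not tested.

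**Figure D4:**
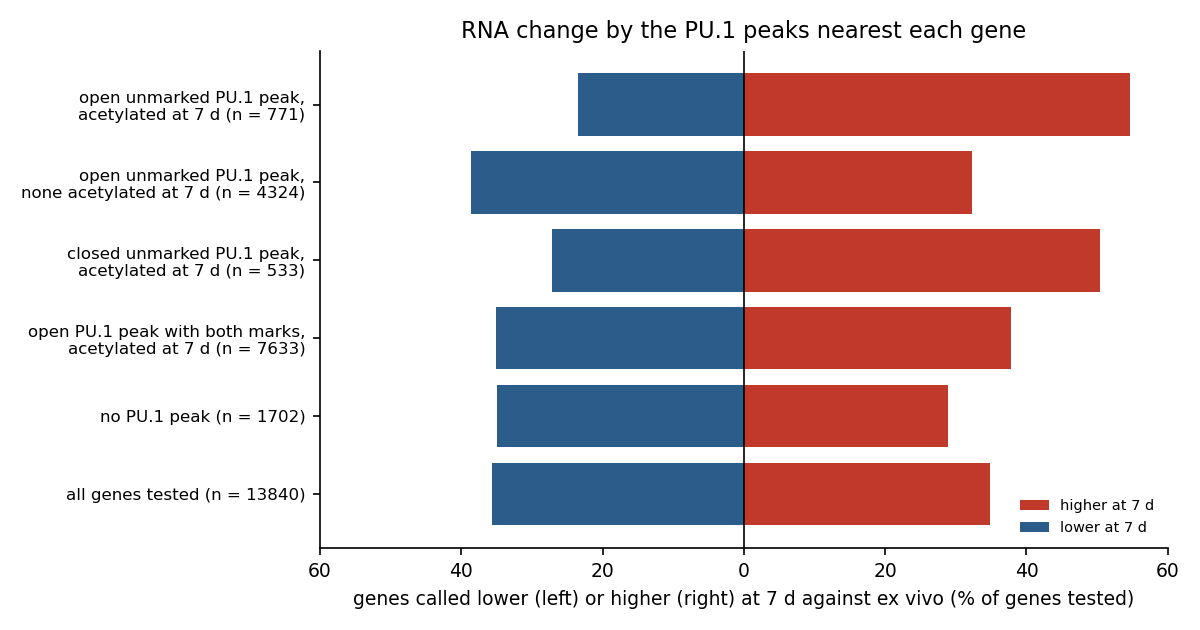
Percentage of tested genes called lower (left, blue) or higher (right, red) at 7 d against ex vivo (x axis), for sets of genes by the PU.1 peaks nearest them (y axis, with the number tested). Genes with an acetylated open unmarked site had 54.6% higher and 23.5% lower, against 34.8% and 35.7% over all genes tested.

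Among genes that averaged 20 CPM or more in 1 of the groups and whose libraries did not overlap, the largest rises near acetylated sites were in Mmp12, Igf1, Myof, Cd36, Rab7b, Stap1, Igf2r, Msr1, Arhgap10 and Alcam. Mmp12, on chromosome 9, has a single open unmarked site, which spans the gene start (its letters are printed above), was 1227 bp from the nearest ex vivo mark, and had both a 7 d ATAC peak and a 7 d H3K27ac region. Mmp12 had 1944, 2730, 2226, 1191 and 2279 CPM in the 7 d libraries, against 2.51, 0.875, 2.70, 0.0717 and 1.17 CPM ex vivo. The groups did not overlap, and the log2 difference was 10.38 (SE 0.56, adjusted p = 1.89e-10, edgeR). At 6 h Mmp12 was already at 1290 and 1439 CPM, and at 24 h at 7646, 6012 and 7379 CPM. With TGFβ at 7 d it had 182 and 384 CPM.

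Igf1, a growth factor, has 3 sites, at 719 to 27292 bp from the gene body on chromosome 10, all acetylated at 7 d and 2 with a 7 d ATAC peak. Its RNA was at 1490, 1151, 1369, 962 and 1900 CPM at 7 d, against 3.57, 2.50, 5.49, 1.00 and 0.778 CPM ex vivo (log2 difference 8.96, SE 0.48, adjusted p = 2.00e-10, edgeR). Every 7 d library lay above every ex vivo library. The intermediate libraries stood between them, at 15.3 and 10.4 CPM at 6 h and 173, 150 and 112 CPM at 24 h.

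Cd36, a scavenger receptor that takes up fatty acids and oxidised lipoproteins, has 2 sites in its gene body on chromosome 5, both open and acetylated at 7 d. It had 465, 835, 691, 439 and 424 CPM at 7 d, against 0.835, 2.13, 3.35, 0.0717 and 0.890 CPM ex vivo (log2 difference 8.54, SE 0.57, adjusted p = 2.84e-09, edgeR). Msr1, the macrophage scavenger receptor, has 3 sites on chromosome 8, all open and acetylated at 7 d. It had 554, 630, 479, 644 and 447 CPM at 7 d, against 1.95, 3.50, 3.83, 1.29 and 0.945 CPM ex vivo (log2 difference 7.87, SE 0.41, adjusted p = 1.55e-10, edgeR). Neither gene's groups overlapped. In the 2 libraries with TGFβ, Cd36 was at 7.90 and 17.7 CPM, lower than in any 7 d library without it, and Msr1 was at 138 and 351 CPM.

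Rab7b, a small GTPase of late endosomes, rose early. It was at 759 and 756 CPM at 6 h and at 428, 462 and 478 CPM at 24 h, and at 7 d it had 389 to 445 CPM, against 0.612 to 2.34 CPM ex vivo (log2 difference 8.36, SE 0.29). Both of its sites are in the gene body and were open and acetylated at 7 d. Igf2r, a lysosomal sorting receptor, has 1 acetylated site in its body and no marked PU.1 peak assigned to it, and it had 403 to 673 CPM at 7 d, against 1.44 to 3.39 CPM ex vivo (log2 difference 7.95, SE 0.26). Myof, a membrane-repair ferlin, Stap1, an adaptor protein, Arhgap10, a GTPase-activating protein, and Alcam, an adhesion molecule, rose by 7.71 to 8.65 on the log2 scale, and 9 sites were assigned to these 4 genes, of which 7 were acetylated. The 10 genes named for a rise here were chosen for their size among genes with an acetylated site, and their libraries did not overlap by that choice.

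RNA fell near other acetylated sites. Among genes with an acetylated site, the 5 largest falls were in Tmem44, a transmembrane protein, Csmd3, a large cell-surface protein, Vipr1, a receptor for vasoactive intestinal peptide, Notch4, a Notch receptor, and Plcl1, a phospholipase C-related protein. Csmd3 has 11 sites, 10 with a 7 d ATAC peak and 1 acetylated at 7 d, and its RNA was at 1.80, 3.81, 6.32, 2.89 and 5.46 CPM at 7 d, against 101, 256, 159, 333 and 304 CPM ex vivo (log2 difference -5.83, SE 0.52, adjusted p = 1.15e-07, edgeR). Most of its sites thus stayed open while its RNA fell. Plcl1 has 12 sites, 9 with ATAC and 1 with acetylation at 7 d, and was at 2.43 to 3.33 CPM at 7 d, against 64.2 to 77.3 CPM ex vivo (log2 difference -4.67, SE 0.17). Tmem44 has 4 sites, of which 2 were acetylated, and its log2 difference was -6.88 (SE 0.46).

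Genes with a site in the promoter window were called about as often as all genes tested. Of 42 tested, 17 (40.5%) were higher and 13 (31.0%) lower at 7 d, beside 34.8% and 35.7% of all genes. Spp1 has 1 site, 26 bp outside the gene body, with a 7 d ATAC peak and no 7 d H3K27ac region. It had 557, 1216, 1110, 516 and 157 CPM at 7 d, against 3.16, 3.63, 3.15, 0.931 and 3.11 CPM ex vivo (log2 difference 7.97, SE 0.64, adjusted p = 2.87e-08, edgeR). At 6 h it was at 11.5 and 9.94 CPM, and with TGFβ at 7 d at 1383 and 3857 CPM, the highest of all its libraries. The groups did not overlap, and no 24 h library, at 18.2, 5.84 and 11.3 CPM, reached the lowest 7 d library.

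Cybb has 6 sites on chromosome X, 1 of them over the gene start, all 6 with a 7 d ATAC peak and 4 acetylated at 7 d. It had 1286, 1229, 1447, 1265 and 1364 CPM at 7 d, against 3.94, 27.1, 24.6, 2.44 and 7.78 CPM ex vivo (log2 difference 6.64, SE 0.61, adjusted p = 1.51e-07, edgeR). Its RNA was at 72.5 and 43.7 CPM at 6 h and at 537, 362 and 321 CPM at 24 h. The groups did not overlap. Ifi209, whose start site was open and acetylated at 7 d and lay 74 bp from an ex vivo mark, averaged 54.2 CPM at 7 d and 6.64 CPM ex vivo (log2 difference 3.03, adjusted p = 4.64e-04, edgeR). Spic was low, at a mean of 0.531 CPM at 7 d and 0.0161 CPM ex vivo (log2 difference 4.34, adjusted p = 2.07e-05, edgeR), with an open and unacetylated site at 7 d. Other genes with a start site fell. H2-Aa, the alpha chain of an MHC class II molecule, averaged 0.224 CPM at 7 d and 12.2 CPM ex vivo (log2 difference -5.71), with an open start site. Rapgef1, an exchange factor for Rap GTPases, averaged 165 CPM at 7 d and 265 CPM ex vivo (log2 difference -0.69, SE 0.17), with its start site 29 bp from a mark.

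**Figure D5:**
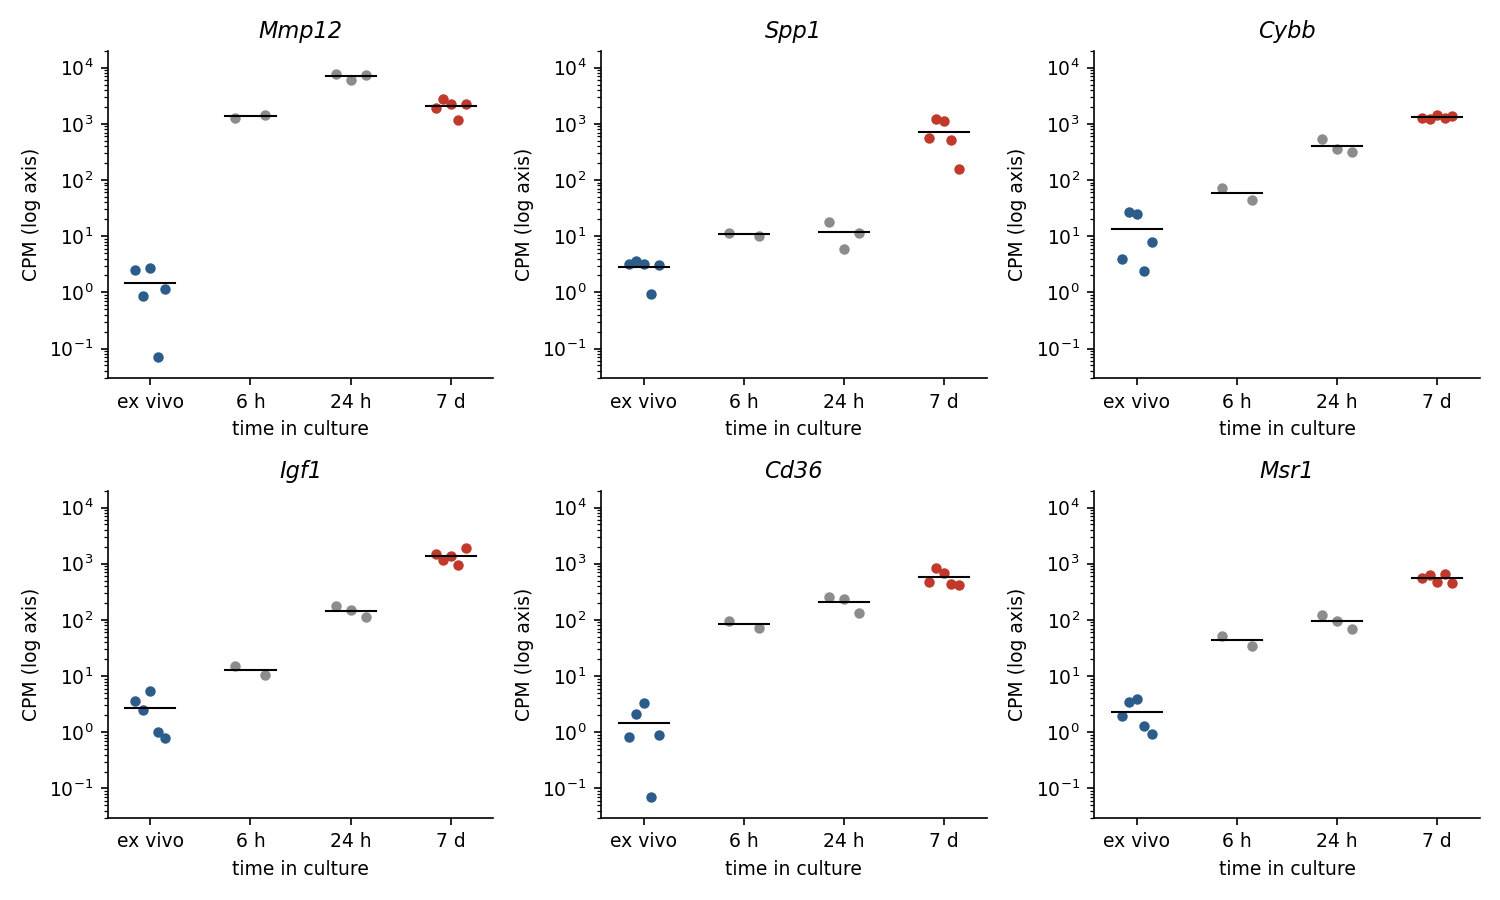
CPM of each RNA library (y axis, log scale) for 6 genes with open unmarked sites, by time in culture (x axis), with black bars at group means. All 5 libraries at 7 d stand above all 5 ex vivo libraries for each gene, and Mmp12 is highest at 24 h.

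A few genes gathered several acetylated sites. Of the 906 genes with at least 1, 14 had 4 or more, counted after the values were seen. Lpp and Fat3 had 7 each. Lpp, an adhesion scaffold protein, had the most open unmarked sites of any gene, 19, and was at 102 to 157 CPM at 7 d, against 53.9 to 108 CPM ex vivo (log2 difference 0.69, SE 0.18, adjusted p = 0.0027, edgeR). Fat3, a protocadherin, had 16 sites and a log2 difference of 0.50 that did not pass (SE 0.24, adjusted p = 0.0726, edgeR). Xdh, xanthine dehydrogenase, had 5 of 7 sites acetylated and averaged 134 ± 54.0 CPM at 7 d and 2.53 ± 1.47 CPM ex vivo (SD, n = 5 each), with a log2 difference of 5.70 (SE 0.48). Irf2bp2, a corepressor, had 5 of 10 acetylated and averaged 164 ± 44.3 CPM at 7 d and 446 ± 56.8 CPM ex vivo, with a log2 difference of -1.45 (SE 0.16). Pik3cg, a catalytic subunit of phosphoinositide 3-kinase, had 4 of 8 acetylated and a log2 difference of -1.26 (SE 0.13). Tnfaip3, an inhibitor of NF-κB signalling, had 4 of 5 acetylated and did not pass (137 ± 29.6 CPM at 7 d and 154 ± 68.9 CPM ex vivo, adjusted p = 0.575, edgeR).

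The 10 genes with the most sites were all long, with bodies of 276 to 1004 kb, and their RNA moved both ways. Asap1 had 18 sites, Pard3b 18, Nav2 16, Fmnl2 15, Ank2 15, Bach2 14, Nfia 14 and Foxp1 14, beside Lpp and Fat3; an eleventh gene, Rbfox1, also had 14 and is longer. Bach2, a transcriptional repressor, had 13 of 14 sites open at 7 d and 1 acetylated, and was at 8.30 to 14.3 CPM at 7 d, against 80.5 to 115 CPM ex vivo (log2 difference -3.23, SE 0.19). Nfia and Foxp1, both transcription factors, and Ank2, an ankyrin, had no acetylated site and their log2 differences were -1.86, -0.42 and -2.07. Nav2, a neuron navigator protein, and Pard3b, a polarity protein, also fell, with log2 differences of -1.60 and -1.56. Asap1, an Arf GTPase-activating protein, rose by 0.45 and Fmnl2, a formin, by 0.54 (adjusted p = 0.0093 and 0.023, edgeR). The call of Fmnl2 was lost when 7 d library 1 or 5, or ex vivo library 3, 4 or 5, was left out (log2 difference 0.42 to 0.49). On the deposited TPM both calls were lost, with log2 differences of 0.21 for Asap1 and 0.30 for Fmnl2.

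Nearly all genes of microglial identity fell, whether or not they had an open unmarked site. Of 28 homeostatic genes, 13 had a site, 18 sites in all, and 0 of these were acetylated at 7 d, beside 8.44% over all sites, and nothing is read from so few sites. All 13 genes were called lower at 7 d, with a median log2 difference of -3.41, and over the whole list 27 of 28 were lower and 1 higher, so genes with a site did not stand apart from the list. P2ry12, a purine receptor, has 1 site in its body, 637 bp from a mark and open at 7 d, and was at 46.4, 37.2, 43.5, 30.4 and 39.9 CPM at 7 d, against 4175, 6573, 5235, 2974 and 3106 CPM ex vivo (log2 difference -6.80, SE 0.39). Siglech, a sialic-acid-binding lectin, has 1 site 61071 bp from its body, also open at 7 d, and was at 0.317 to 1.95 CPM at 7 d, against 1247 to 1510 CPM ex vivo (log2 difference -10.03, SE 0.41). Adgrg1, an adhesion receptor, and Golm1, a Golgi membrane protein, have 1 site each without a 7 d ATAC peak and had log2 differences of -6.73 and -3.41. Sparc, a matrix protein, kept an open site, with a log2 difference of -5.90.

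Receptors of TGFβ, a cytokine that maintains microglial identity, were among these. Tgfbr1 has 2 sites, both open at 7 d, and Tgfbr2 has 3, of which 1 was. Tgfbr1 averaged 432 ± 166 CPM at 7 d and 2779 ± 707 CPM ex vivo (SD, n = 5 each), and Tgfbr2 777 ± 117 CPM at 7 d and 991 ± 75.1 CPM ex vivo (log2 differences -2.69 and -0.35).

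Of 26 genes for lineage transcription factors, 23 had an open unmarked site, with 75 sites between them, of which 6 were acetylated at 7 d. The share over all sites was 8.44%. Of these 23 genes 4 were called higher and 10 lower, with a median log2 difference of -0.32, and over the whole list 5 were higher and 12 lower, with a median of -0.34, so genes with a site did not stand apart from the list. Irf8, a partner of PU.1, has 4 sites 50563 to 68051 bp from its body, 3 open and 1 acetylated at 7 d, and was at 349, 288, 329, 276 and 318 CPM at 7 d, against 637, 493, 571, 649 and 566 CPM ex vivo (log2 difference -0.90, SE 0.12). Runx1, which acts upstream of PU.1 in blood development, has 6 sites, of which 5 were open and 2 acetylated at 7 d, and its groups overlapped, at 180 to 344 CPM at 7 d and 207 to 277 CPM ex vivo (adjusted p = 0.421, edgeR). Ets1, Ikzf1 and Nfatc2 have 4, 4 and 5 sites, none acetylated, and their log2 differences were -1.86, -1.74 and -1.60. Bhlhe40, with 1 open site, rose by 4.05. Fli1, with 6 sites, and Bhlhe41, with 1, did not pass (log2 differences -0.28 and -0.36). Mef2c, with 3 open sites, did not pass either (log2 difference -0.05). Some of these genes recur in a list of 22 genes basic to microglia, of which 13 had a site, with 31 sites of which 3 were acetylated, 0 genes called higher and 10 lower, and over that whole list 2 were higher and 16 lower, with a median log2 difference of -0.90 for the genes with a site and -1.19 for the list. Its other members with a site include Bin1, a membrane-bending protein, Itgam, the integrin chain CD11b, Aif1, the marker IBA1, and Ptprc, the phosphatase CD45. The first 3 fell (log2 differences -1.60, -0.73 and -0.86) and Ptprc, with 6 sites, did not pass (log2 difference -0.18).

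Genes of phagocytosis and lipid handling went the other way. Of 25, 13 had an open unmarked site, 17 sites in all with 5 acetylated at 7 d, 3 near Msr1 and 2 near Cd36. Over all sites the share was 8.44%, and nothing is read from so few sites. Of the 13 genes 10 were called higher and 2 lower, with a median log2 difference of 6.60. Over the whole list 21 were higher and 2 lower, with a median of 3.17, and the difference between the 13 genes and the list was not tested. Lpl, lipoprotein lipase, has 1 site, open and not acetylated at 7 d, and was at 9331 to 10717 CPM at 7 d, against 12.6 to 46.5 CPM ex vivo (log2 difference 8.35, SE 0.36). It was at 9142 and 9447 CPM at 6 h. Gpnmb, a glycoprotein of phagocytes, has 1 site without ATAC or acetylation at 7 d, and was at 1965 to 3771 CPM at 7 d, against 0.358 to 3.38 CPM ex vivo (log2 difference 10.96, SE 0.56). Plin2, a coat protein of lipid droplets, has 1 open unacetylated site and rose by 7.24 (SE 0.19). The cholesterol exporter Abcg1 has 1 site, without a 7 d ATAC peak, and its log2 difference was -4.11. The receptor tyrosine kinase Axl did not pass (log2 difference 0.31, SE 0.49).

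Inflammatory genes held more acetylated sites than any other of the lists described here. Of 24, 9 had a site, and 11 of their 21 sites were acetylated at 7 d: 4 near Tnfaip3, 3 near Nfkbiz, 2 near Ccl2 and 1 each near Cxcl2 and Nfkbia. Over all sites the share was 8.44%. The sites are few and the acetylated ones gather at a few genes, so nothing is read from this difference. Of the 9 genes 1 was called higher and 4 lower, with a median log2 difference of -0.68. Over the whole list of 24, 6 were higher and 8 lower, with a median of -0.14, and the difference between the 9 genes and the list was not tested. Nfkbiz, an inducible IκB protein, had 64.5, 25.4, 29.5, 77.2 and 64.2 CPM at 7 d, against 703, 36.8, 24.9, 455 and 132 CPM ex vivo, and its groups overlapped although the log2 difference of -2.37 passed (SE 0.72, adjusted p = 0.0085, edgeR). That call was lost on the deposited TPM (log2 difference -1.66). Ccl2, a chemokine, was at 0.768 to 16.0 CPM at 7 d, against 2.74 to 89.3 CPM ex vivo (log2 difference -2.72, SE 0.85), and its groups overlapped as well. Il1b, with 1 open site, was at 0 to 0.929 CPM at 7 d, against 3.17 to 5.95 CPM ex vivo, and at 529.5 and 377 CPM at 6 h. Il6, with 1 open site, averaged 0.0497 CPM at 7 d and 4.41 CPM ex vivo. Nfkbia and Ccl7 did not pass (log2 differences -0.68 and -0.59).

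Of 23 genes of adhesion and the cytoskeleton, 14 had a site, 44 sites in all with 6 acetylated at 7 d, and 6 of these genes were called higher and 4 lower, with a median log2 difference of 0.14. Over the whole list 13 were higher and 5 lower, with a median of 0.66, and the difference between the 14 genes and the list was not tested. The share of all sites acetylated at 7 d was 8.44%. The integrin chains Itga5 and Itgb1 rose by 2.89 and 1.29, and the adaptor Fyb by 1.22. Elmo1, which activates Rac during engulfment, has 10 sites, 6 open and 1 acetylated at 7 d, and fell by 1.20. Rap1a, with 1 acetylated site, did not pass (log2 difference 0.37, SE 0.21), nor did Arhgap15, with 5 sites (log2 difference -0.97, SE 0.44).

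Open unmarked sites also lay near genes of other brain cells. Of 20 neuronal genes 9 had a site, 33 sites in all, and Rbfox1, a neuronal splicing factor, had 14, every one of them open at 7 d and 2 acetylated. Only 4 of the 9 passed the filter on low counts, and all 4 were called lower at 7 d, as were 8 of the 9 genes of the list that passed it. Their RNA was low in both groups: Rbfox1 averaged 2.54 ± 0.528 CPM at 7 d and 8.31 ± 2.24 CPM ex vivo, and Dlg2, a synaptic scaffold protein, 0.151 ± 0.162 CPM at 7 d and 0.968 ± 1.30 CPM ex vivo (SD, n = 5 each). The call of Dlg2 (log2 difference -2.66) was lost without ex vivo library 3 (-1.32), without 7 d library 2, 3 or 5 (-2.47 to -2.34) and with the replicate number as a block (-2.08). Of 7 neuronal marker genes the fit held 5, which summed to 0.549 to 1.11 CPM at 7 d and 2.22 to 21.4 CPM ex vivo, and all 7 summed to 6625 to 8227 CPM in brain lysate. The part of such RNA in these falls was not tested.

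The comparison with brain lysate, which holds all cells of the brain, set the genes near these sites against the tissue. Of 5541 tested genes with a site, 2267 (40.9%) were called higher and 2424 (43.7%) lower in sorted ex vivo microglia than in lysate (edgeR quasi-likelihood test on 9 libraries), near the 39.1% higher and 43.5% lower, or 82.7% called in either direction, of all 15335 genes tested. The genes split by whether a marked PU.1 peak was also assigned to them. Marks and RNA were both read in ex vivo microglia, so nothing is read from this split. Among genes with sites, the median ex vivo level was 0.734 CPM without a marked PU.1 peak and 28.2 CPM with one. Over all genes tested it was 14.6 CPM, and the part of level was not tested. Of the 779 tested genes with open unmarked sites and no marked PU.1 peak, 127 (16.3%) were higher in microglia and 556 (71.4%) lower, with a median log2 difference of -4.22. Of the 4762 with sites and a marked PU.1 peak, 2140 (44.9%) were higher and 1868 (39.2%) lower, with a median of 0.15, against -0.10 over all genes tested. DESeq2 size factors in place of TMM moved the median of all genes in this comparison by -0.28, more than the distance of the last set's median from 0. Genes with no PU.1 peak assigned to them also lay low, with 22.1% higher and 61.7% lower and a median of -2.12. Each peak was assigned to its nearest gene alone, so these genes can still hold or adjoin a PU.1 peak. In bulk RNA, fewer cells of a type and less RNA per cell cannot be told apart.

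Of 1600 genes with open unmarked sites and no marked PU.1 peak assigned to them, 584 (36.5%) passed the filter of the culture comparison. With both, 4511 of 5575 (80.9%) passed. Among those 584, 195 (33.4%) were called higher and 192 (32.9%) lower at 7 d, near the background of all genes tested. Igf2r is one of these genes.

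Markers of most other cell types were low in both groups of microglia beside the microglial ones. Totals per library ran from 24186690 to 28024478 counts at 7 d, 13338672 to 21902309 ex vivo and 11584561 to 25655815 in lysate. The 6 microglial markers summed to 6489 to 9299 CPM at 7 d, 35975 to 40329 CPM ex vivo and 207 to 303 CPM in lysate. The 4 border macrophage markers summed to 55.4 to 109 CPM at 7 d and 6.95 to 84.0 CPM ex vivo, and the 4 neutrophil ones to 0.277 to 2.01 CPM at 7 d and 3.08 to 161 CPM ex vivo. The 4 astrocyte markers that were tested, of 5, summed to 2.09 to 5.57 CPM at 7 d and 2.72 to 119 CPM ex vivo, the 5 oligodendrocyte markers to 10.8 to 12.1 CPM at 7 d and 37.5 to 135 CPM ex vivo, and the 2 endothelial ones that were tested, of 4, to 10.2 to 34.7 CPM at 7 d and 3.31 to 4.83 CPM ex vivo. None of 4 B and T cell markers passed the filter. Their part in the differences of the genes named above was not tested.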

How the data were processed

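Sorted microglia and brain lysate were profiled by RNA-seq, and microglia by ATAC-seq and ChIP-seq. RNA reads were summarised by the authors as raw counts per gene and, in a second deposited table, as TPM, named as trimmed in the deposited file. Peaks were called by the authors with HOMER on pooled libraries, per the file headers, and the ATAC lists without an input. Bowtie2, STAR, bedtools, limma, R 3.3.1 and mm10 are named in the submitters' processing notes, with no role given. Peaks were intersected with bedtools 2.31.1 (at least 1 bp), and each site was given its nearest RefSeq gene body within 100 kb (GRCm38.p6, the build of mm10). The quasi-likelihood test of edgeR 4.0.16 (R 4.3.3, filterByExpr, TMM scaling, robust fit, Benjamini-Hochberg adjusted p under 0.05) was run on the counts, 7 d against ex vivo and sorted ex vivo against lysate, after tests on simulated data. CPM values are computed from the deposited counts and TMM factors. DESeq2 1.42.0 and limma 3.58.1 on log2(TPM + 1) were alternatives. Genes named are those of a list basic to microglia, the 10 with the most sites, the 10 largest rises and 5 largest falls near acetylated sites (20 CPM or more on average in whichever group was higher, and no overlap between libraries), up to 4 called and 2 uncalled genes of each list, and genes with a start site. Others were named after their values were seen, namely those gathering 4 or more acetylated sites, Ifi209, Spic, H2-Aa and the acetylated inflammatory genes. The sites and lists were chosen with earlier results of these data known. Replicate numbers did not pair the libraries: deviations of same-numbered libraries correlated by -0.03 to 0.20 at 7 d and by -0.09 to 0.10 against lysate. Groupings of libraries within a condition were not tested. At 7 d, Pard3b was at 11.4 and 12.1 CPM in libraries 2 and 3, and at 1.66, 2.73 and 2.56 CPM in libraries 1, 4 and 5. Some genes that this rule takes in are not reported here.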

Additional observations from a re-analysis of the deposited data

Results flagged for a closer look

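In 8 of 142 groups of 5 libraries looked at for the genes named, 1 library stood apart from the other 4 by more than Dixon's limit, and chance gives about 1 in 20. Among ex vivo libraries, Tgfbr1 was high in library 2 at 4026 CPM, Tmem44 in library 1 at 101 CPM, and Tpm3 in library 4 at 217 CPM, while Spp1 was low in library 4 at 0.931 CPM. Dlg2 was high in ex vivo library 3 at 3.23 CPM. At 7 d, Golm1 was low in library 4 at 87.4 CPM, Rap1a was high in library 2 at 44.3 CPM, and Snap25 was above 0 only in library 3, at 0.0372 CPM.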

How the results depend on the processing

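Asking that the centre of a PU.1 peak lie in the other peak, or that 50% of it be covered, gave the same result, 14926 sites with 75.3% open and 7.62% acetylated at 7 d. Leaving out sites with a mark within 1 kb gave 77.5% and 7.68%. Limiting genes to those whose body holds a site left 1196 called higher at 7 d, as fewer genes were counted. The other alternatives kept the counts within 1.5 times of those reported. Leaving out 1 library gave 1737 to 1860 genes with a site higher and 1774 to 1851 lower at 7 d, and 2081 to 2239 higher and 2360 to 2555 lower against lysate. With the replicate number as a block, which did not pair the libraries, 1818 were higher and 1855 lower at 7 d, and 2196 higher and 2349 lower against lysate. The sets that follow were put through the alternatives only after the data were seen. Genes with an acetylated site had 332 to 426 higher and 172 to 197 lower at 7 d, and genes with sites but no marked PU.1 peak had 104 to 161 higher and 478 to 751 lower against lysate. Of 2029 alternative values for 71 of the named genes, 1975 kept their call, 18 lost it, 36 gained one and 0 changed direction while called. Xdh, Irf2bp2, Pik3cg, Tnfaip3, Ifi209, Spic and H2-Aa are not among the 71. Peak lists pool replicates, so no spread between libraries stands behind the shares of sites, and letters were read in promoter windows alone.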
